A study of Mus musculus with 8 samples.

Results

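The 10 endothelial identity genes Pecam1, Cdh5, Kdr, Tek, Tie1, Emcn, Egfl7, Esam, Cldn5 and Plvap were followed in oligo(dT)-selected RNA from gonads of mouse embryos at day 11.5. They were chosen by name as widely used markers of the cells that line blood vessels. Earlier results of these data were known at that choice, so the shares of all genes printed beside them are no test. All 10 were found by gene name among the 48440 genes of the deposited tables. Gonads of 4 groups were sequenced, with 2 libraries in each (wild type and Kdm6b-null, each in XX and in XY embryos). Each library pooled 2 pairs of gonads of one sex and genotype, so a library averages over more than 1 gonad pair. Kdm6b encodes an enzyme that takes the silencing methyl marks off lysine 27 of histone H3. The labels call the mutants a Kdm6b knockout, without naming the deleted part, the strain or the driver of any Cre, and they mark XX samples as pre-granulosa and XY samples as pre-Sertoli cells. They describe no sorting, and endothelial, germ cell, erythroid and mural genes were all present, so the values were taken as those of whole gonads. Mesonephros and duct genes were also present, with sums of 1388 to 3705 normalized counts over 7 genes. What neighbouring tissue contributes was not tested.

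Endothelial cells line blood and lymphatic vessels. They sense vascular endothelial growth factor (VEGF) and angiopoietins through receptor tyrosine kinases, hold together through adherens and tight junctions, and carry surface glycoproteins that set how the vessel wall exchanges molecules and cells. In the early gonad they enter from the neighbouring mesonephros. In XY gonads they also build an artery along the surface of the forming testis, whereas XX gonads keep a finer network. In bulk RNA, fewer endothelial cells and less RNA per endothelial cell cannot be told apart.

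The stretches before the RefSeq starts of 4 members are printed. Those of the receptor genes Tek, Tie1 and Kdr, which open the results below, are given. That of Emcn, whose values followed the other members least across libraries, is given too. RefSeq windows of the build GRCm38.p6 (250 bases before to 50 after a start) were given for Tek, Tie1, Kdr, Emcn, Cldn5 and Egfl7. Pecam1, Cdh5, Esam and Plvap had no window. Each line below holds the 250 bases before the RefSeq start, 5′ to 3′ on the strand of the gene. They lie at chr4:94739039-94739288 (plus strand) for Tek, chr4:118489850-118490099 (minus strand) for Tie1, chr5:75978456-75978705 (minus strand) for Kdr and chr3:137340828-137341077 (plus strand) for Emcn. The deposited coordinates place the starts of Tie1 (118490061), Kdr (75978458) and Emcn (137341067) further upstream than RefSeq does. Most of the Tie1 stretch, and the last bases of the Kdr and Emcn stretches, thus lie inside the gene as counted. Capitals mark matches on either strand to letters that stand for classes of transcription factor with well-known roles in endothelium. For ETS factors the letters were AGGAAG. A further core of the same class was CCGGAA. SOX factors were represented by ACAAT. GATA factors were represented by AGATAA. The class of FOX factors was represented by TAAACA.
Tek: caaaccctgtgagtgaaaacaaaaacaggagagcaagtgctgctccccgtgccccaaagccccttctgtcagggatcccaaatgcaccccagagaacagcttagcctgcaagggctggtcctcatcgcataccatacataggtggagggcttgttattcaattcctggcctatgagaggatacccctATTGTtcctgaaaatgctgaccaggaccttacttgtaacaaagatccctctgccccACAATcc
Tie1: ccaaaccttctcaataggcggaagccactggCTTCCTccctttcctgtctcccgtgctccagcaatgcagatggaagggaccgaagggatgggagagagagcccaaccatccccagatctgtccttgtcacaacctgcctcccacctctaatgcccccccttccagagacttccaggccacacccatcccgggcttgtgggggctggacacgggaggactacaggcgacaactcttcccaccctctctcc
Kdr: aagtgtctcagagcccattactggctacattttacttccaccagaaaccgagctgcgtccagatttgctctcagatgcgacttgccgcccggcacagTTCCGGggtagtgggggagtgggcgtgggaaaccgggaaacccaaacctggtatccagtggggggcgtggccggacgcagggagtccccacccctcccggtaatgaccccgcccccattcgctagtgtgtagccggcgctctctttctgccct
Emcn: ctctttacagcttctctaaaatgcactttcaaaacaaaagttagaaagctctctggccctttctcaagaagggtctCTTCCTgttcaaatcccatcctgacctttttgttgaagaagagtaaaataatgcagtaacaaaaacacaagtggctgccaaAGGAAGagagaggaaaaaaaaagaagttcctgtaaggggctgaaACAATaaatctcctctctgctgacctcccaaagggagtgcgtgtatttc

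Over the whole windows, AGGAAG was found in 3 of the 6 members with a window (Egfl7, Emcn and Tie1), and in 38.4% of all 27025 mouse genes with windows of this length. A gene can have more than 1 window (Egfl7 has 3), and any of them counted. CCGGAA was found in Kdr, against 16.7% of all genes. ACAAT lay in Emcn and Tek, against 34.4% of all genes. Tek also held AGATAA, 36 bases after the start and so outside the printed stretch, against 12.7% of all genes. TAAACA was in none of the 6, against 15.1% of all genes. No match overlapped another in these windows. The counts describe letters in short windows and say nothing of binding.

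Each library held 19107103 to 19828638 counts, and the 3 counts that set the limit for a value of 0 came to 2.91 to 3.09 normalized counts. Such limits cover counting error only. All 10 members were far above that limit in all 8 libraries, the lowest value being 489 (Cldn5 in XX wild type replicate 1). Kdm6b itself, the check of the labels, was at 2218 and 2796 normalized counts in XX wild type against 1249 and 1125 in XX Kdm6b-null. In XY it was at 3399 and 3181 in wild type against 1238 and 1037 in the null. Some libraries stood apart. XX wild type replicate 1 held 13776 normalized counts on 6 liver genes, against 339 in the other XX wild type library and 20.6 to 217 in the remaining 6, and it was also highest for adrenal cortex genes (1788 against 342 to 588). XY wild type replicate 2 was the highest library for the 10 members, and XY Kdm6b-null replicate 2 was the highest XY library for 13 erythroid genes (216533 against 62292 to 105950.0 in the other 3).

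Per kilobase of exon, which allows levels of different genes to be compared, Plvap and Cdh5 were the 2 highest members in all 4 groups. Cldn5 was the third by mean, but its libraries overlapped those of the next gene in every group except XX Kdm6b-null. In XX wild type the mean level was 540.4 normalized counts per kilobase for Plvap and 533 for Cdh5, and their libraries overlapped. In XX Kdm6b-null the same genes reached 1024 and 924, with Plvap above Cdh5 in both libraries. The lowest 3 places were held by Tek, Emcn and Esam in all 4 groups, in changing order. Tek, for one, had means of 183 (wild type) and 258 (null) per kilobase in XX, and of 283 (wild type) and 199 (null) in XY. The middle of the order was taken by Pecam1, Tie1, Kdr and Egfl7, most of which overlapped a neighbour: in XX wild type Tie1 (295) overlapped Kdr (286). Pecam1 held the fourth place in XX wild type and the sixth in the other 3 groups. Exon lengths came from GENCODE M21, whose coordinates for Cldn5 and Plvap differ from those in the deposited tables, so the levels per kilobase of these genes are the least certain.

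**Figure D1:**
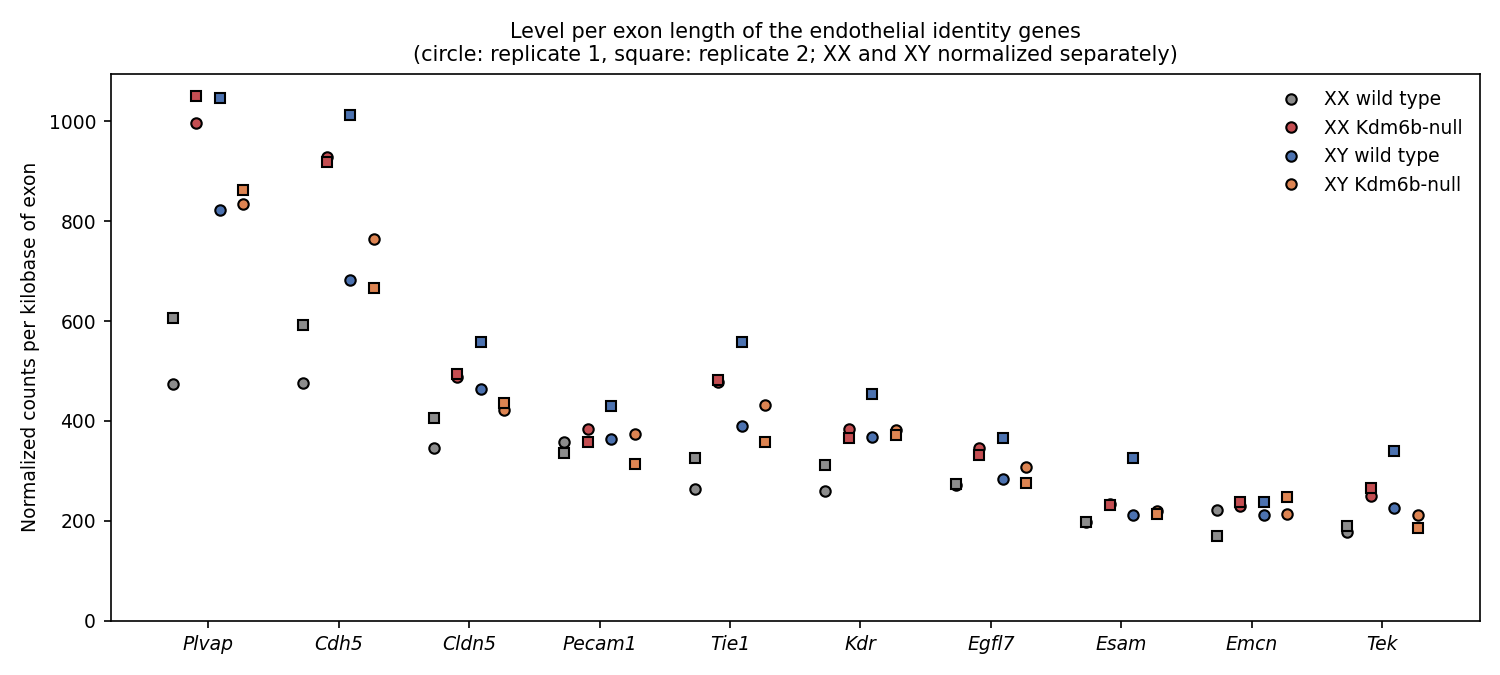
Normalized counts per kilobase of exon (vertical axis) for the 10 genes (horizontal axis), 1 point per library, coloured by group, with circles for replicate 1 and squares for replicate 2. Plvap and Cdh5 lead in every group, and Tek, Emcn and Esam are lowest.

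The first comparison asks whether loss of Kdm6b alters the members in XX gonads at this stage. All 10 had higher mean levels in XX Kdm6b-null, though none passed the adjusted test. Every member had a positive log2 fold change, from 0.10 for Pecam1 to 0.93 for Plvap, with a median of 0.39 beside 0.00 over all 17028 genes tested. In 9 of the 10 both null libraries lay above both wild type libraries, against 27.0% of all genes, and all 10 did so without XX wild type replicate 1 (40.3% of all genes). Pecam1 was the exception. A positive sign alone was found in 50.1% of all genes. None of the 10 passed limma with Benjamini-Hochberg adjustment at 0.05, nor did any gene in the table (percentage called 0.0), and edgeR on counts recovered from the normalized values also called 0.0% of genes. At an unadjusted p under 0.05, limma found 7 of 10 members higher, against 9.34% of all genes (1591 higher and 792 lower of 17028, or 1207 and 1177 when scaled to library totals, CPM). By edgeR 2379 genes had such a p. All 10 signs stayed positive on the CPM scale, with a median of 0.33 beside -0.06 over all genes. In the authors' deposited table Plvap, Cdh5 and Tie1 passed an adjusted p of 0.05, against 1.95% of genes called higher there.

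**Figure D2:**
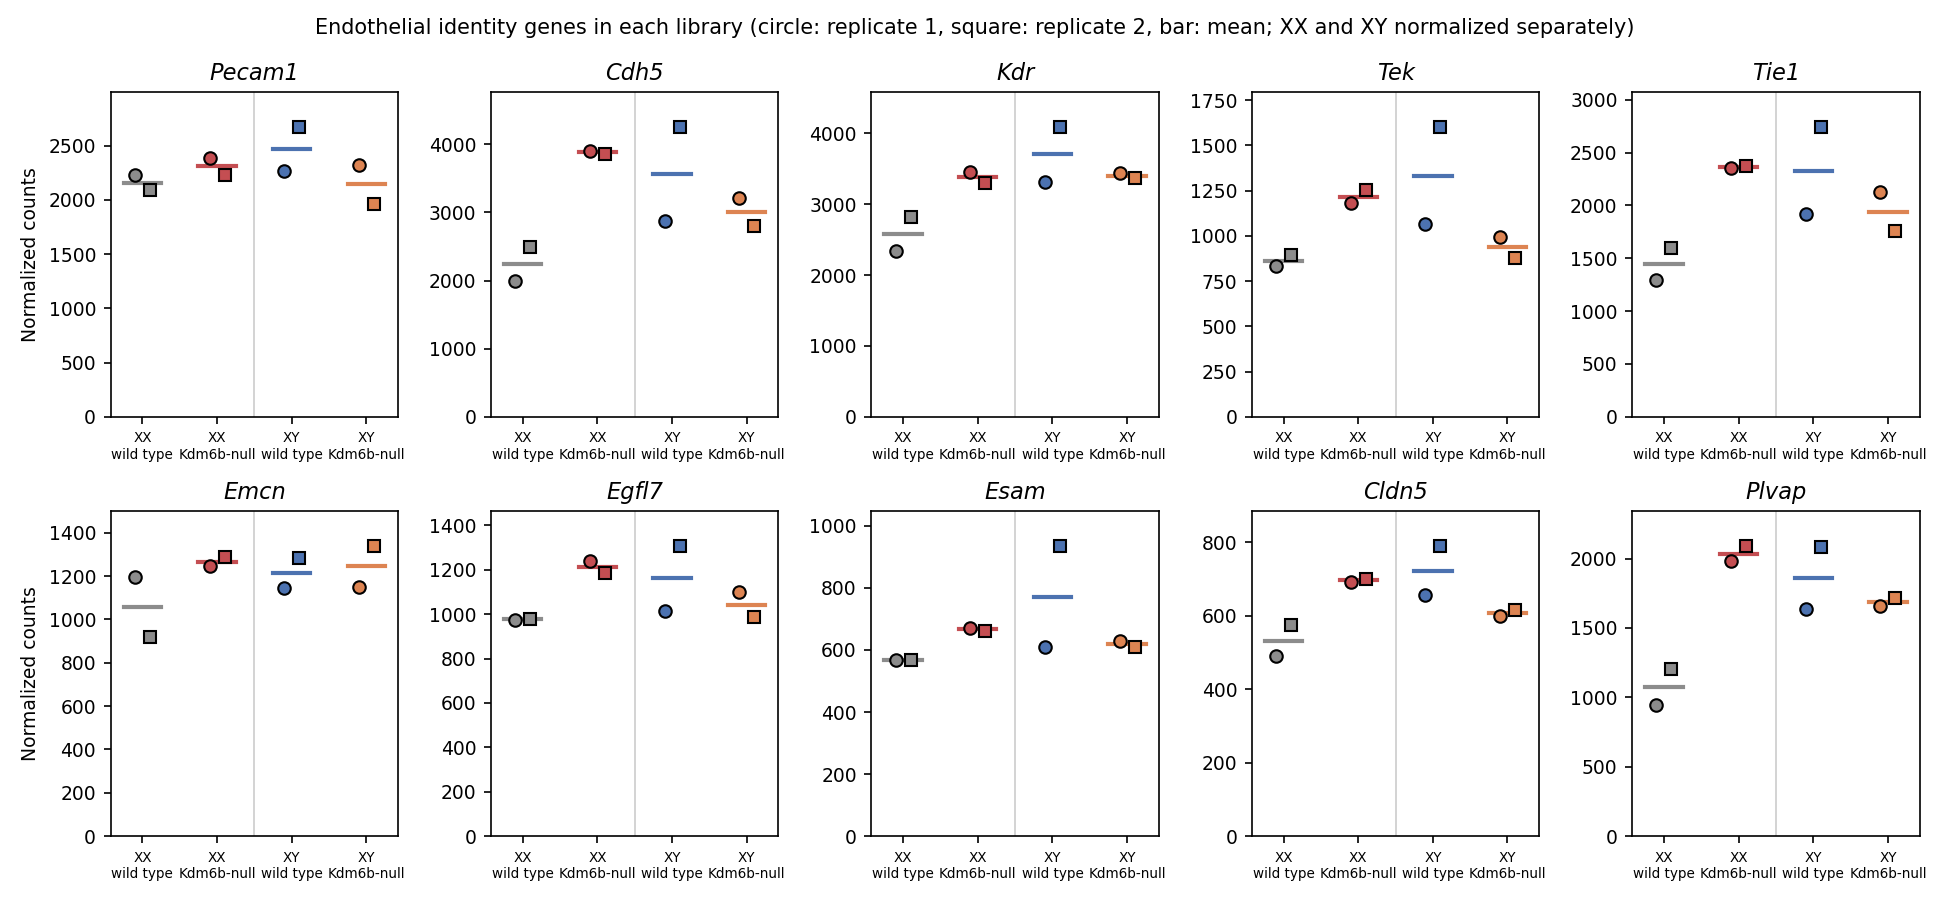
Normalized counts (vertical axes, from 0) of each of the 10 genes in the 4 groups, 1 point per library (circle for replicate 1, square for replicate 2) with a bar at the group mean; XX and XY were normalized separately. The XX Kdm6b-null points sit above the XX wild type points for all genes but Pecam1, and the XY points overlap for all but Tek and Cldn5.

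The receptor genes came first among the roles. Kdr (chr5:75932827-75978458, minus strand) encodes the main signalling receptor for VEGF-A, VEGFR2. Its level was 2344 and 2817 normalized counts in the XX wild type libraries against 3463 and 3298 in XX Kdm6b-null. Both null libraries were above both wild type libraries, with means of 2581 ± 335 and 3381 ± 116 (SD, n = 2 each) and a log2 fold change of 0.40 ± 0.12 (SE). Tek (chr4:94739289-94874976, plus strand) encodes Tie2, the receptor of the angiopoietins. It was at 832 and 894 in XX wild type against 1181 and 1252 in XX Kdm6b-null. The groups did not overlap, and the log2 fold change was 0.49 ± 0.10 (SE), with limma adjusted p = 0.261. Its partner Tie1 (chr4:118471191-118490061, minus strand) has no well-established ligand of its own and modulates Tie2 signalling. Tie1 was at 1294 and 1602 in XX wild type against 2355 and 2374 in XX Kdm6b-null. The null libraries differed from each other by far less than the wild type libraries did, and the log2 fold change was 0.71 ± 0.13 (SE) with limma adjusted p = 0.261. In the authors' deposited table it was 0.71 with DESeq2 adjusted p = 0.00181.

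Among the junction genes Cdh5 stood out and Pecam1 did not. Cdh5 (chr8:104101625-104144511, plus strand) encodes VE-cadherin, the cadherin of endothelial adherens junctions. Its XX wild type libraries were at 1998 and 2486 normalized counts and its XX Kdm6b-null libraries at 3904 and 3863. The means of 2242 ± 346 and 3884 ± 29.1 (SD, n = 2 each) were 1.74-fold apart on the log scale of the test, with limma adjusted p = 0.237, and in the authors' deposited table the DESeq2 adjusted p was 1.32e-04. Cldn5 (chr16:18776847-18778260, plus strand) encodes claudin 5, which seals endothelial tight junctions. It was at 489 and 574 in XX wild type against 691 and 701 in XX Kdm6b-null. The groups did not overlap, at a log2 fold change of 0.39 ± 0.12 (SE). Esam (chr9:37528078-37538319, plus strand), an adhesion molecule of the same tight junctions, was at 569 and 568 in wild type against 669.6 and 663 in the null. These narrow pairs gave a log2 fold change of only 0.23 ± 0.10 (SE), with limma adjusted p = 0.387. Pecam1 (chr11:106654217-106750628, minus strand) encodes CD31, an adhesion molecule between endothelial cells that early germ cells and platelets are also known to carry. It was at 2229 and 2086 in XX wild type against 2388 and 2227 in XX Kdm6b-null. Null replicate 2 lay below the higher wild type library, and the log2 fold change was 0.10 ± 0.10 (SE) with limma adjusted p = 0.674, and ran from 0.05 to 0.15 with 1 library left out. The ratio of Cdh5 to Pecam1 in normalized counts, not corrected for length, was 0.896 and 1.19 in XX wild type against 1.64 and 1.74 in XX Kdm6b-null.

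The surface and secreted genes ranged from 0.27 for Emcn to 0.93 for Plvap on the log2 scale. Plvap (chr8:71497754-71511769, minus strand) encodes the protein that builds the diaphragms of fenestrae and caveolae, and it had the largest difference of the 10. It was at 944 and 1204 normalized counts in XX wild type against 1980.0 and 2090.2 in XX Kdm6b-null. The lower null library was well above the higher wild type library, and the log2 fold change was 0.93 ± 0.14 (SE) with limma adjusted p = 0.218. The authors' deposited table gave 0.92 with DESeq2 adjusted p = 4.89e-05. Plvap overlaps the opposite-strand gene Gtpbp3, which was at 600 to 714 in all 8 libraries. Whether the counting used strand was not stated, so reads of the overlap cannot be told apart. Emcn (chr3:137341067-137432185, plus strand) encodes endomucin, a sialomucin of venous and capillary endothelium. It was at 1197 and 920.5 in wild type against 1246 and 1289 in the null. Here wild type replicate 1 came close to the null libraries, and the log2 fold change of 0.27 ± 0.15 (SE) had limma adjusted p = 0.45. It was 0.46 without wild type replicate 1 and 0.08 without wild type replicate 2. Egfl7 (chr2:26580014-26593120, plus strand) encodes a protein that endothelial cells secrete into the matrix of the vessel wall. The gene hosts the microRNA gene Mir126a on the same strand, which was listed at 0 in all 8 libraries. The RNA was oligo(dT)-selected, so this 0 does not show that the microRNA was absent. Egfl7 was at 973 and 980.2 in XX wild type against 1239 and 1186 in XX Kdm6b-null. These groups did not overlap, and the log2 fold change was 0.31 ± 0.09 (SE). Its neighbour on the opposite strand, Agpat2, which shares its last bases, was at 260 to 320 in all libraries. Gm20532 (chr2:26586639-26635634) overlaps Egfl7 on the same strand and was at 0 in all 8 libraries. How reads that fit both genes were counted was not stated.

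The XX wild type libraries differed in make-up, and the estimates changed when either was left out. Without replicate 1, the library with liver genes, the median of the members was 0.37, beside 0.01 over all genes. Without replicate 2 it was 0.52, also beside 0.01 over all genes. All 10 members stayed positive in both fits. In both fits the lone wild type library is assumed to vary like the null libraries, which lay close together. The share of counts on mitochondrial genes was 3.12% and 2.55% in XX wild type against 1.99% and 2.02% in XX Kdm6b-null, and its part in the result was not tested. Markers of other cells also differed between the XX groups. The 10 pericyte and mural genes summed to 14334 and 15975 normalized counts in wild type against 23031 and 26859 in the null. Of these genes 8 were higher (8 without wild type replicate 1 and 7 without replicate 2), on a median of 0.61, above the 0.39 of the members. Rgs5, a pericyte regulator of G protein signalling, was at 1867 and 1759 against 2788 and 2814. The 9 gonadal somatic genes tested, of 10 in the list, were all higher in the null (8 of 9 on the CPM and upper quartile scales, and 6 of 9 without wild type replicate 2, where the median went from 0.39 to 0.21), with sums over the list of 12878 and 12172 in wild type against 15784 and 16033 in the null. The 13 erythroid genes went the other way, with 12 of 13 lower on a median of -0.65 and sums of 195960.0 and 252797 against 124406 and 117143. All 13 were lower on the CPM scale and without wild type replicate 1 (median -1.13), but 9 of 13 without wild type replicate 2 (median -0.29). Of 7 mesonephros and duct genes 6 were higher in the null (median 0.52), 7 of 7 without wild type replicate 1 (median 0.73) and 5 of 7 without replicate 2 (median 0.12). The germ cell list had 9 of 14 lower (median -0.25), but 5 of 14 lower without wild type replicate 1 (median 0.42). Macrophage genes were lower for 9 of 11 (median -0.20), and for 5 of 11 without that library (median 0.06). Liver genes were lower in all 6 cases, at 13776 and 339 in wild type against 73.7 and 90.9 in the null, where Ttr, the blood carrier of thyroid hormone, was at 900.3 and 104 against 6.98 and 8.08. The part of these cells in the result was not tested.

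In XY gonads most members had lower means without Kdm6b, and the libraries of the 2 genotypes overlapped for 8 of 10. The log2 fold change was negative for 9 of 10, against 50% of all 16821 genes tested, and Emcn (0.04) was the exception. The median was -0.21, beside 0.00 over all genes. Only Tek and Cldn5 had both null libraries below both wild type libraries, 2 of 10 against 16.3% of all genes. None of the 10 was lower at an unadjusted limma p under 0.05 (2.85% of all genes were). Tek was just short of it (p = 0.0564 by limma) and past it by edgeR (p = 0.0466), in 1 limma fit of all 8 libraries (p = 0.0271), with the replicate block (limma p = 0.0264) and in the authors' deposited table (DESeq2 p = 0.0145), though after adjustment in none of these. No gene passed limma (0.0%) or edgeR (0.0%) after Benjamini-Hochberg adjustment, while 834 and 848 genes had an unadjusted p under 0.05. No member was called lower in the authors' deposited table, where 0.279% of genes were.

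Among the XY receptor genes Tek differed most. It was at 1063 and 1602 normalized counts in XY wild type against 996 and 875 in XY Kdm6b-null. Every null library was below every wild type library, with a log2 fold change of -0.48 ± 0.20 (SE) and limma adjusted p = 0.999. Kdr was at 3319 and 4094 in wild type against 3442 and 3367 in the null. Both null libraries lay between the wild type libraries, at a log2 fold change of -0.11 ± 0.11 (SE). Tie1 was at 1916 and 2744 in wild type against 2124 and 1762 in the null. These groups overlapped, and wild type replicate 2 was higher than the other 3 (log2 fold change -0.25 ± 0.19 (SE)).

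The XY junction genes followed the same layout. Cdh5 was at 2871 and 4256 normalized counts in wild type against 3212 and 2805 in the null, so that only wild type replicate 2 stood clear of the null (log2 fold change -0.22 ± 0.19 (SE)). Cldn5, the sealing claudin, was at 656 and 789.5 in wild type against 599 and 617 in the null. Its groups did not overlap, though by a small margin, and the log2 fold change was -0.24 ± 0.12 (SE) with limma adjusted p = 0.999. Esam was at 609 and 935 in wild type against 629 and 610.4 in the null. The other 3 libraries lay close together below wild type replicate 2, and the log2 fold change was -0.28 ± 0.20 (SE). Pecam1 was at 2268 and 2673 in wild type against 2323 and 1959 in the null, at -0.21 ± 0.12 (SE). This was -0.09 without wild type replicate 2 and -0.08 without null replicate 2. The ratio of Cdh5 to Pecam1 overlapped between the genotypes here, at 1.27 and 1.59 in wild type against 1.38 and 1.43 in the null.

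Plvap, the diaphragm protein with the largest XX difference, was at 1634 and 2081 normalized counts in XY wild type against 1657 and 1716 in XY Kdm6b-null. Its null libraries lay between the wild type libraries, at a log2 fold change of -0.13 ± 0.13 (SE). Emcn was at 1146 and 1282 in wild type against 1152 and 1339 in the null. It was the only member whose highest XY library was a null library. Egfl7 was at 1016 and 1307 in wild type against 1099 and 987 in the null, overlapping, at -0.15 ± 0.14 (SE).

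XY wild type replicate 2 was the highest XY library for 9 of the 10 members. Without it the XY median was 0.03 and 7 of 10 members were positive, whereas leaving out XY wild type replicate 1 gave a median of -0.35 with all 10 negative. Leaving out a null library gave -0.27 (without replicate 1) or -0.12 (without replicate 2). The sign of the XY median thus depended on 1 library. That library was also the highest in XY for pericyte and mural genes, at 18073 and 26637 in wild type against 21562 and 17299.5 in the null. Of these 10 genes 6 were lower in the null (median -0.16), and 5 without that library (median 0.02). The erythroid sum, 62292 and 105950.0 in wild type against 72205 and 216533 in the null, was highest in the null library with the lowest sum of the members. Of the 13 erythroid genes 12 were higher in the null (median 0.45), but 3 of 13 without null replicate 2 (median -0.27). Gonadal somatic genes summed to 19617 and 21470.4 in wild type against 14248 and 20339 in the null, with all 9 tested negative (median -0.23). Without null replicate 2 the median was -0.73 with 8 of 9 negative, whereas without null replicate 1 it was 0.02 with 4 of 9 negative. Lhx9, a transcription factor of the gonadal surface, was at 1699 and 2228 against 929.6 and 1086. Macrophage genes were higher in the XY null for 9 of 11 (median 0.28), and for 8 or 9 of 11 with any 1 library left out. They summed to 2563 and 2704 in wild type against 3190 and 3484 in the null. Csf1r, the receptor of a macrophage growth factor, was at 479 and 499 against 816 and 809, with DESeq2 adjusted p = 0.00105 in the authors' deposited table. Germ cell genes were higher for 13 of 14 (median 0.31), but for 7 of 14 without wild type replicate 1 (median 0.04). What these cells contribute was not tested.

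**Figure D3:**
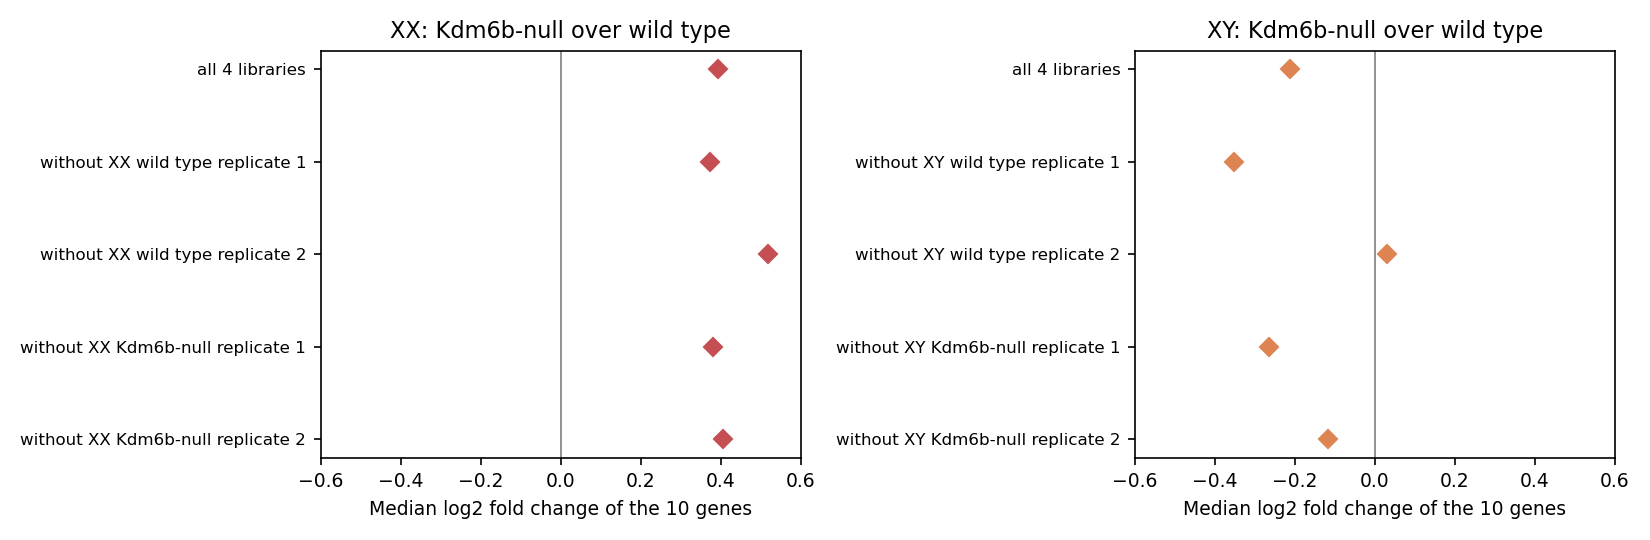
Median log2 fold change of the 10 genes (horizontal axis) with all 4 libraries of a sex and with each library left out in turn (vertical axis), in XX (left) and XY (right). The XX median stays between 0.37 and 0.52, while the XY median runs from -0.35 to 0.03 and crosses 0 without XY wild type replicate 2.

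The summed level of the members put the groups side by side. Because XX and XY tables were normalized separately, the sums are given as CPM, each library scaled to its own total. In XX they were 694 and 726 in wild type against 970 and 946 in the null. In XY they were 856 and 1118 against 902 and 815. On this scale XX wild type was the lowest group, with both libraries below all 6 others, and the XX Kdm6b-null libraries lay inside the range of the XY wild type libraries. These levels across tables carry no test.

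The last comparison asks whether the effect of losing Kdm6b differed between the sexes. A limma fit of all 8 libraries tested the XY effect minus the XX effect, so the separate scaling of each table drops out. The difference was negative for all 10 members, against 52.0% of the 16943 genes tested, with a median of -0.57 beside -0.02 over all genes. It was below 0 at an unadjusted p under 0.05 for 7 of 10, against 5.71% of all genes. Of the 1425 genes past that p in either direction 968 were below 0, and on the CPM scale 682 of 1315 were, with 6 members past it. No gene passed adjustment by limma (0.0% called) or by edgeR (0.0% called, with 1378 at an unadjusted p under 0.05). Plvap had the largest difference, -1.06 ± 0.21 (SE), with limma adjusted p = 0.568. Cdh5 followed at -1.02 ± 0.26 (SE), then the receptors Tek (-0.98 ± 0.25 (SE)) and Tie1 (-0.96 ± 0.26 (SE)). These 4 were also the members with the largest XX effects. The 3 that missed an unadjusted p of 0.05 were Pecam1, Emcn and Esam, with Emcn the smallest at -0.24 ± 0.20 (SE), or -0.43 without XX wild type replicate 1 and -0.046 without XX wild type replicate 2. Leaving out any library kept the median between -0.80 and -0.43.

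**Figure D4:**
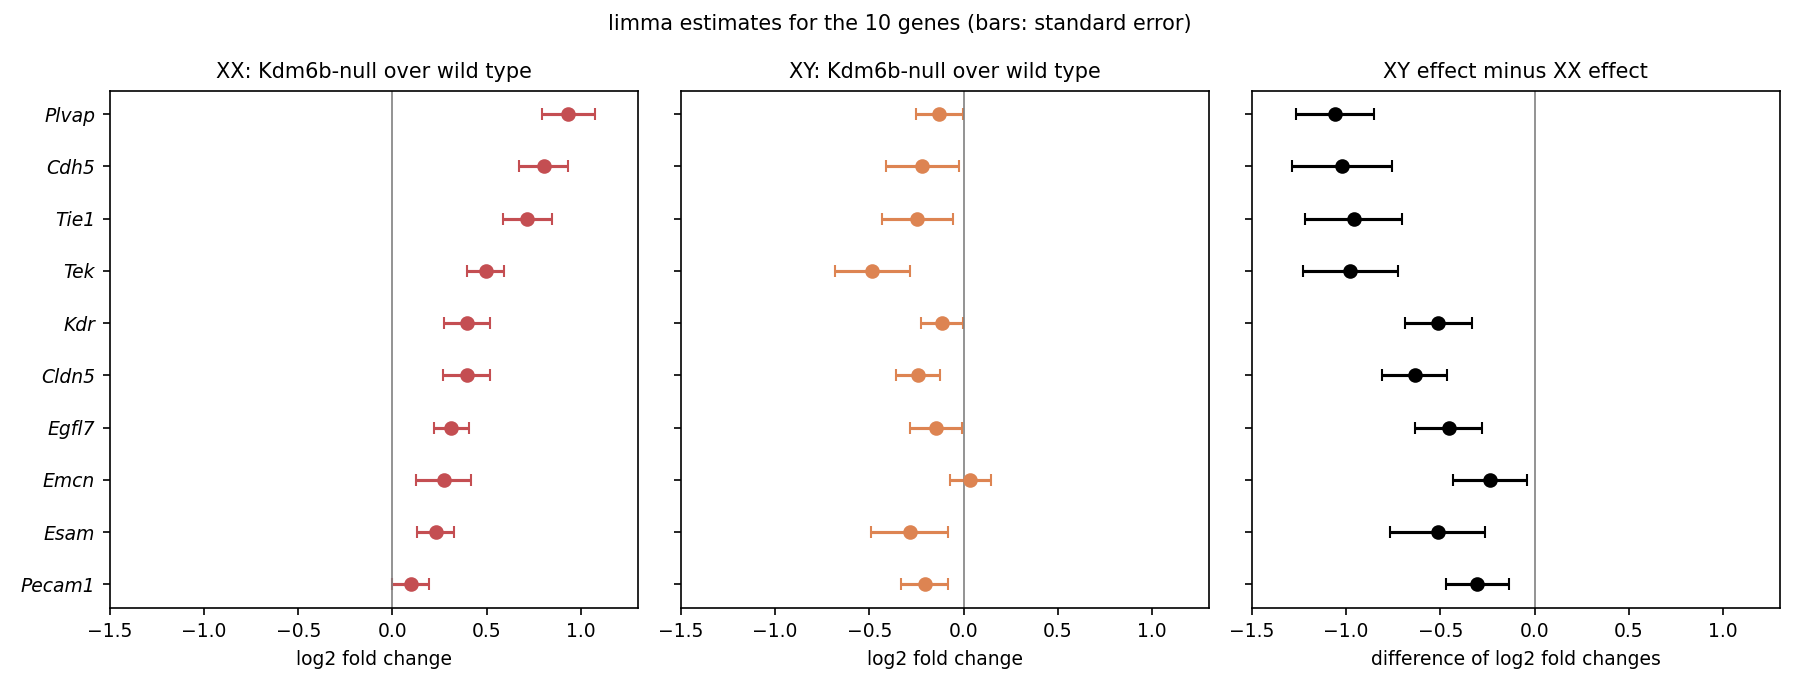
limma estimates for the 10 genes, with bars for the standard error: the log2 fold change of Kdm6b-null over wild type in XX (left) and XY (middle), and the XY effect minus the XX effect (right), with genes ordered by the XX value. All XX estimates are above 0, from 0.10 to 0.93, and all differences are below 0, from -1.06 to -0.24.

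Further lists covered other endothelial genes, and the sign of each list's median was the same on the CPM and upper quartile scales. Of 20 other endothelial surface and junction genes, 16 had a positive log2 fold change in XX (median 0.22, or 15 on the CPM scale). In XX 7 had an unadjusted limma p under 0.05, all higher, against 9.34% of all genes. In XY, 16 of the 20 were negative (median -0.26). There 3 had an unadjusted limma p under 0.05, all lower, against 2.85% of all genes. Without XY wild type replicate 2, 12 of the 20 were negative and the median was -0.04, and without XY null replicate 2 it was -0.07 with 15 negative. In XX the median was 0.22 without either wild type library, and 0.13 without null replicate 1. Vwf, which encodes the clotting factor stored in endothelial granules, was at 1314 and 1731 in XX wild type against 3541 and 3909 in XX Kdm6b-null. Its fold change on the log scale was 2.47, with limma adjusted p = 0.187. The DESeq2 adjusted p in the authors' deposited table was 6.33e-10. In XY it was at 2236 and 4658 in wild type against 2920.4 and 1465 in the null, with XY wild type replicate 2 again the highest. Mmrn2, an extracellular matrix protein of vessels, was at 451 and 522 against 809 and 912 in XX. Ptprb encodes the phosphatase that acts on Tie2 and VE-cadherin, and it was at 614 and 701 against 962 and 994. Clec14a, a lectin of the endothelial surface, overlapped in XX (501 and 593 against 550.1 and 552) and was lower in both XY null libraries (681 and 759 against 540.4 and 479.7, limma adjusted p = 0.695). Cd34, a sialomucin of endothelium and blood progenitors, had the same layout, with 1673 and 1920.0 against 1526 and 1147 in XY.

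Of 18 transcription factors known from endothelium, 13 of 17 tested were positive in XX (median 0.36). At an unadjusted limma p under 0.05, 7 were higher, against 9.34% of all genes. Without XX wild type replicate 1 the median was 0.22, also with 13 positive. In XY 15 of 18 were negative (median -0.19). The median went to -0.11 with 14 negative when XY wild type replicate 2 was left out, and to -0.06 with 12 negative when XY null replicate 2 was. Sox18, of the SOX group that specifies arterial and lymphatic endothelium, was at 231 and 276 normalized counts in XX wild type against 406 and 396 in XX Kdm6b-null, without overlap. Klf2, which responds to blood flow, was at 171 and 152 against 240.2 and 229. Fli1, an ETS factor of endothelium and blood cells, was at 559 and 710.1 against 850.0 and 902. In XY the smallest p-values belonged to Etv2 and Sox7. Etv2, an ETS factor of the earliest endothelial progenitors, was scarce: 29.7 and 8.97 in XY wild type against 3.90 and 0 in the null, where 0 allows up to 3.09. Sox7 was at 353 and 444 against 302 and 262, without overlap.

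VEGF and angiopoietin ligands with their other receptors were positive for 8 of 12 in XX (median 0.22). On the CPM scale, or without XX wild type replicate 1 (median 0.24), 7 of 12 were positive. At an unadjusted limma p under 0.05, 4 were higher in XX, against 9.34% of all genes. In XY 8 of 12 were negative (median -0.09), 9 of 12 on the CPM scale and 5 of 12 without XY wild type replicate 2 (median 0.02). With every XY library kept, 0 had an unadjusted limma p under 0.05, and 2.85% of all genes were lower at that p. The receptor genes Flt4, which encodes the VEGF-C receptor VEGFR3, and Flt1, which encodes VEGFR1, largely a decoy receptor of VEGF-A, were higher in both XX null libraries. Flt4 was at 516 and 637 in XX wild type against 935 and 849 in XX Kdm6b-null, with DESeq2 adjusted p = 0.0475 in the authors' deposited table. Flt1 was at 480.2 and 687 against 935 and 847 in XX. In XY both overlapped, Flt4 at 774 and 979 against 782 and 752 and Flt1 at 749.9 and 1149 against 845 and 697. The lymphatic growth factor gene Vegfc was at 258 and 301 against 432 and 369.7 in XX, also without overlap. Vegfa, the main ligand of Kdr, was at 3787 and 2784 against 2804 and 2700.4 in XX, which overlapped. In XY Vegfa was at 3174 and 3516 in wild type against 2679.5 and 3043 in the null, at a log2 fold change of -0.23 ± 0.10 (SE). Nrp2, a co-receptor for VEGF-C that other cells also carry, was at 2523 and 2737 against 3549.6 and 2834 in XY.

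Arterial genes lay on opposite sides in the sexes, higher in XX and lower in XY for most of the list. In XX 11 of 12 were positive (median 0.58). At an unadjusted limma p under 0.05, 9 were higher in XX, against 9.34% of all genes. Without XX wild type replicate 1, 11 were positive too (median 0.56). In XY 11 of 12 were negative (median -0.48), and 8 of 12 without XY wild type replicate 2 (median -0.31). Without XY null replicate 2 the XY median was -0.25, with 11 negative. The XY effect minus the XX effect was negative for all 12, against 52.0% of all genes, with a median of -1.04. It was below 0 at an unadjusted limma p under 0.05 for 10, against 5.71% of all genes. Sema3g, a secreted semaphorin of arterial endothelium, was at 239.6 and 287 normalized counts in XX wild type against 545 and 562 in XX Kdm6b-null. Gja5, which encodes connexin 40 of arterial gap junctions, was at 798 and 983 against 1683 and 1916 in XX. In XY it was at 1126 and 1954 in wild type against 1135 and 549.6 in the null, so replicate 1 of each XY group was almost level. Gja4, the connexin 37 gene, was at 336 and 390.4 against 579 and 665 in XX. Dll4, the Notch ligand of arterial and sprouting cells, did not overlap in either sex: it was at 211 and 253 against 344 and 291 in XX and at 296 and 353 against 253 and 181 in XY. Bmx, a kinase gene of arterial endothelium, was at 88.0 and 136 against 69.3 and 39.1 in XY.

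Venous and lymphatic genes were split. Of 5 tested, 3 were positive in XX (median 0.32) and 3 in XY (median 0.06, but -0.20 without XY wild type replicate 1). At an unadjusted limma p under 0.05, 3 were higher and 1 lower in XX, against 1591 and 792 of all 17028 genes. In XY 1 was higher, against 355 of all 16821 genes. Ephb4, the receptor that marks veins, was at 3146 and 3782 normalized counts in XX wild type against 5120.0 and 4793 in XX Kdm6b-null, with DESeq2 adjusted p = 0.0263 in the authors' deposited table. Nr2f2, the vein-specifying nuclear receptor that mesenchyme of the gonad also expresses, was higher in the null in both sexes, at 6086 and 6252 against 8356 and 7071 in XX and 6698 and 6143 against 9013 and 8127 in XY. Lyve1, a hyaluronan receptor of lymphatic endothelium and macrophages, was lower in the null in both sexes, at 115 and 79.9 against 49.8 and 56.6 in XX and 57.4 and 71.8 against 45.8 and 29.8 in XY. Prox1, which specifies lymphatic endothelium, was at 204 and 256 against 324 and 294 in XX and overlapped in XY. None of these passed limma after adjustment in either sex.

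**Figure D5:**
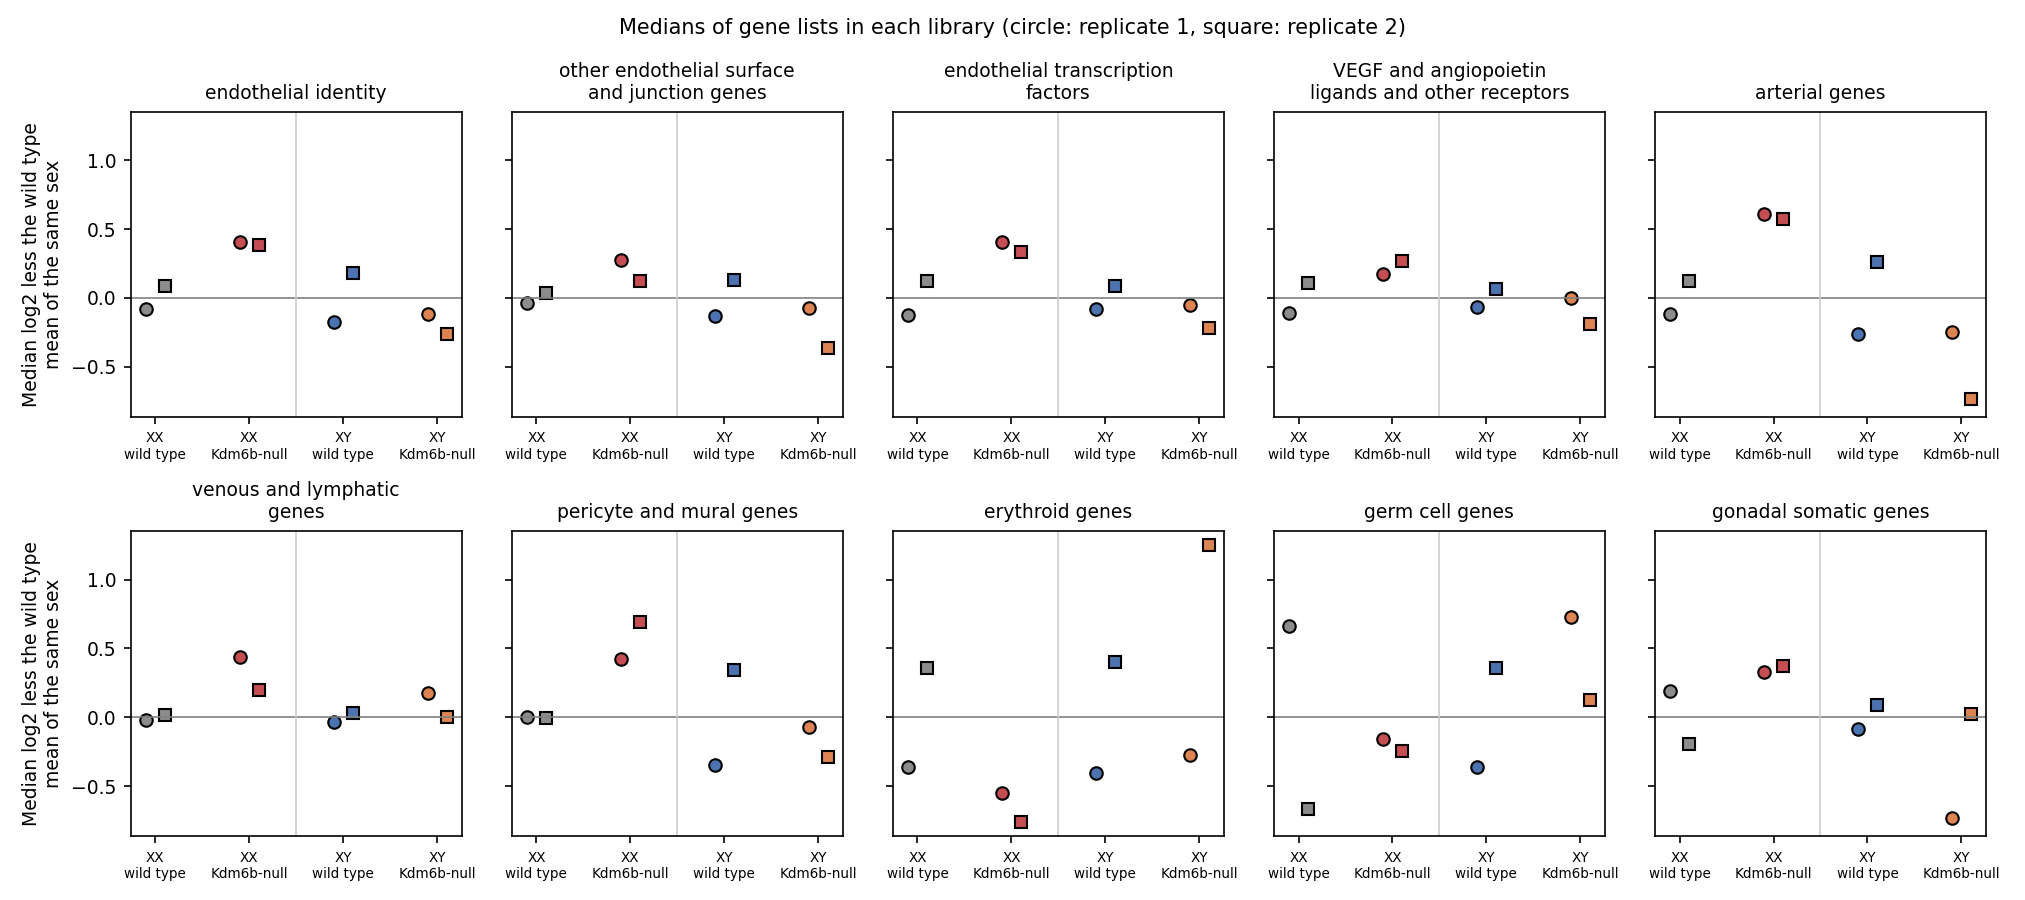
Median over each of 10 gene lists of the log2 value less the wild type mean of the same sex (vertical axis), 1 point per library (circle for replicate 1, square for replicate 2) in the 4 groups. The identity and arterial lists are highest in XX Kdm6b-null, at 0.41 and 0.38 and at 0.61 and 0.57. So are the pericyte and mural list (0.42 and 0.69) and the gonadal somatic list (0.33 and 0.38). The erythroid list is highest in XY Kdm6b-null replicate 2.

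The members did not all follow each other across the 8 libraries. After the mean of each sex was taken out, Cdh5 correlated with the mean of the other 9 members at r = 0.978, Tie1 at 0.975 and Egfl7 at 0.963. Pecam1 (0.648) and Emcn (0.42) followed least. These are descriptions over 8 libraries that share their groups. Without the libraries farthest from the median, XY wild type replicate 2 and XX Kdm6b-null replicate 1, Pecam1 was at 0.201 and Emcn at 0.29, while the other 8 kept values from 0.805 (Esam) to 0.977 (Cdh5).

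Of 13046 genes with a mean of at least 50 in both tables, Notch1, the receptor of the arterial ligand Dll4, was most like the mean of the 10 members (Pearson r = 0.988, Spearman rho = 0.976). Outside all lists the 8 nearest genes were Sema6d (0.981), Kctd10 (0.98), Wrnip1 (0.98), Actc1 (0.973), Plxnd1 (0.971), Git2 (0.971), Fgd5 (0.97) and Rasa3 (0.969), each with its Pearson r over 8 libraries. A high r over 8 libraries that share their groups does not mark a gene as endothelial, nor does it measure the size of a change. Wrnip1, for one, had log2 fold changes of only 0.14 in XX and -0.07 in XY. Plxnd1 encodes the semaphorin receptor of endothelial cells, and Fgd5 a guanine nucleotide exchange factor of endothelium. Plxnd1 was at 3926 and 4821 normalized counts in XX wild type against 7443 and 6978 in XX Kdm6b-null, and at 5846 and 8208 against 6673 and 5465 in XY. Actc1, the actin of heart muscle and of early smooth muscle, had a far larger span, at 209 and 355 in XX wild type against 1395 and 1796 in XX Kdm6b-null. In XY it was at 653 and 1743 in wild type against 843 and 549.6 in the null, highest like the members in XY wild type replicate 2. Without the farthest 2 libraries the r of these 8 genes lay between 0.932 (Fgd5) and 0.995 (Actc1).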

How the data were processed

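Polyadenylated RNA of gonads at embryonic day 11.5, taken as whole gonads, was sequenced. There were 8 libraries, 2 in each of 4 groups of sex and Kdm6b genotype, named by the sample titles. Per the submitters' processing notes, the reads were handled with STAR 2.7.11, cutadapt 4.9, DESeq2 2.11.40.8 and featureCounts 2.0.8 on mm10 (GRCm38). The sources used here state neither annotation nor strand setting. As deposited, each signal value is a gene's normalized count, which the authors made by dividing counts by 1 factor per library, for XX and XY apart, per the file headers and the steps in the values. The authors' deposited tables also give a log2 fold change and p-value per gene from DESeq2, with adjusted p-values, and a Wald score that was not used.

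Tests here used limma 3.58.1 in R 4.3.3, with a variance trend, on log2(normalized count + 1), for genes with a mean of at least 10, and Benjamini-Hochberg adjustment at 0.05, 2-sided. A fold change on this scale understates that of low genes. The difference between sexes was fitted on all 8 libraries. In all 8 libraries 100% of values above 0 lay on multiples of a library's own step (tolerance 1e-06 of it), taken as 1 count. A separate screen could tell this from rounded values in 3 libraries only. edgeR 4.0.16 (quasi-likelihood, TMM) was run on these counts as an alternative added after the data were seen, as were the counts over lists with a library left out or another scaling. The fits were also run on simulated data as a check of the code. That run gives no measure of power or error for the members. The p-values rest only in part on the spread between 2 pools per group, because limma also draws each gene's variance towards that of all genes. Without the variance trend, 5 members rather than 7 had an unadjusted limma p under 0.05 in XX. For the difference between sexes 6 did, rather than 7.

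The 10 members and the lists were chosen with earlier results of these data known, so no list carries a test. Named from each endothelial list were the 3 genes of smallest p in XX and the 2 in XY. From each list of another cell type the gene of smallest p in a sex could be named. The 8 genes outside all lists most like the members' mean were named too. Pseudocounts of 0.5 and 5, no filter, a minimum mean of 50, other scalings, no trend, a block on the replicate number, 1 fit of all 8 libraries and each library left out were tried.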

Additional observations from a re-analysis of the deposited data

Results flagged for a closer look

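For 2 members the libraries of the genotypes did not overlap in either sex and lay in opposite directions. How many of all genes had this layout was not counted. It was not particular to the members: Dll4 and Sox18, of other endothelial lists, had it too. So did Kctd10 and Rasa3, from outside all lists. In XX 9 of the 10 members had both null libraries above both wild type libraries, against 27.0% of all genes. In XY 2 of the 10 had both null libraries below, near the 16.3% of all genes. Tek, the angiopoietin receptor gene, was higher in both XX null libraries and lower in both XY null libraries, and the XY effect minus the XX effect was -0.98 on the log2 scale (limma adjusted p = 0.568). Cldn5, the tight junction gene, had the same layout and a difference of -0.64 (limma adjusted p = 0.568). Neither passed the test of the difference, and without XY wild type replicate 2 the XY estimates were smaller, at -0.19 for Tek and -0.11 for Cldn5.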

How the results depend on the processing

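The log2 fold changes of the 10 members kept their sign in all alternatives run in XX (14 for each gene) and for the difference between sexes (17 for each gene). The count of genes called by limma in XX was 2 with the replicate block, 10 in 1 fit of all 8 libraries and 0 to 3550 with 1 library left out. In XY it was 1 without the variance trend, 23 with the replicate block and 0 to 2 with 1 library left out. For the difference it was 0 to 43 with 1 library left out. No member was called with the block. The labels do not say that a replicate number marks a shared litter, batch or day, so no pairing was assumed. Deviations of same-numbered libraries correlated at -0.07 in XX, at 0.25 in XY, at 0.18 between the null groups of the sexes and at -0.02 to 0.05 between the other groups. With 1 library left out, the median of the members ran from 0.37 to 0.52 in XX, from -0.35 to 0.030 in XY and from -0.80 to -0.43 for the difference. In the same fits the XY value ran from -0.50 to 0.064 for Cdh5, -0.27 to 0.037 for Kdr, -0.50 to 0.014 for Tie1, -0.073 to 0.14 for Emcn, -0.33 to 0.036 for Egfl7, -0.59 to 0.024 for Esam, -0.30 to 0.045 for Plvap, -0.78 to -0.19 for Tek, -0.38 to -0.11 for Cldn5 and -0.33 to -0.084 for Pecam1. The first 7 of these changed sign in such fits, 6 of them without XY wild type replicate 2; the cause was not tested. In XX, Kdr ran from 0.26 (without wild type replicate 1) to 0.53 (without wild type replicate 2). The difference ran from -0.64 to -0.28 for Egfl7 and from -0.82 to -0.20 for Esam, lowest without XY wild type replicate 1 and highest without replicate 2, and from -0.43 to -0.18 for Pecam1, lowest without XY null replicate 1 and highest without null replicate 2. A fit that leaves out 1 of 2 libraries assumes that the lone library varies like the other group.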
